A study of Mus musculus with 4 samples.

Results

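*Cd36*, *Scarb1*, *Msr1*, *Marco*, *Olr1* and *Stab1* encode scavenger receptors that bind oxidized or otherwise modified lipoproteins. These 6 genes were chosen by symbol among the 24346 symbols listed for each library, all 6 were found, and all 6 passed the filter on low values. The RNA sequence analysis compared dorsal skin lesions of male C57BL/6 mice in 2 groups of 2 libraries. The Cont-IMQ group received a high-fat, high-cholesterol and bile salt diet (NASH diet) for 3 weeks, and the 7KC-IMQ group received that diet with added 7-ketocholesterol (7KC). The mice were 8 weeks old when the diets began, and both groups then received imiquimod (IMQ) cream for 1 day, which provokes a psoriasis-like inflammation. Since every library came from IMQ-treated skin of mice on a NASH diet, neither the diet without IMQ nor a normal diet is part of the comparison.

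Scavenger receptors take up modified low-density lipoprotein (LDL) by a route that is not shut down when the cell fills with cholesterol, and macrophages that take it up in excess become foam cells. 7KC is a main oxysterol of oxidized LDL, so cells that carry these receptors can meet it in lipoprotein particles. The receptors are grouped in classes by structure. *Cd36* and *Scarb1* belong to class B, *Msr1* and *Marco* to class A, *Olr1* to class E and *Stab1* to class H.

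Levels are given as FPKM, fragment counts that the authors divided by exon length and by library size. Comparisons between genes depend on the transcript lengths used, which are not given in the sources used here. Differences are given as log2(FPKM + 1) of the 7KC-IMQ group minus that of the Cont-IMQ group. Adding 1 makes differences of low-level genes look smaller than they are. Depth is not stated for the libraries. From the steps of the low values in genes with a single annotated transcript, it was estimated at 15050000 to 16400000 mapped reads per library. The 4 libraries had FPKM sums between 630272 and 702218, the highest in 7KC-IMQ replicate 2. The labels do not say that the libraries of a group came from separate mice, so the p-values below measure only the spread between these libraries.

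By mean FPKM, the order was *Cd36*, *Scarb1*, *Msr1*, *Stab1*, *Marco* and *Olr1*. *Cd36* made up 60.7% to 68.7% of the summed FPKM of the 6 genes in each library. The step from *Cd36* to *Scarb1* was 3.41-fold to 4.29-fold within a library, and the step from *Scarb1* to *Msr1* was 1.77-fold to 2.53-fold. *Msr1* lay above *Stab1* in all 4 libraries, and the lowest *Msr1* value (9.81 FPKM) was above the highest *Stab1* value (9.26 FPKM). *Stab1* and *Marco* were not separated beyond their spread, as *Marco* was the higher of the pair in Cont-IMQ replicate 1. *Olr1* was the lowest in every library, and *Marco* exceeded it by 4.83-fold to 10.7-fold.

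**Figure D1:**
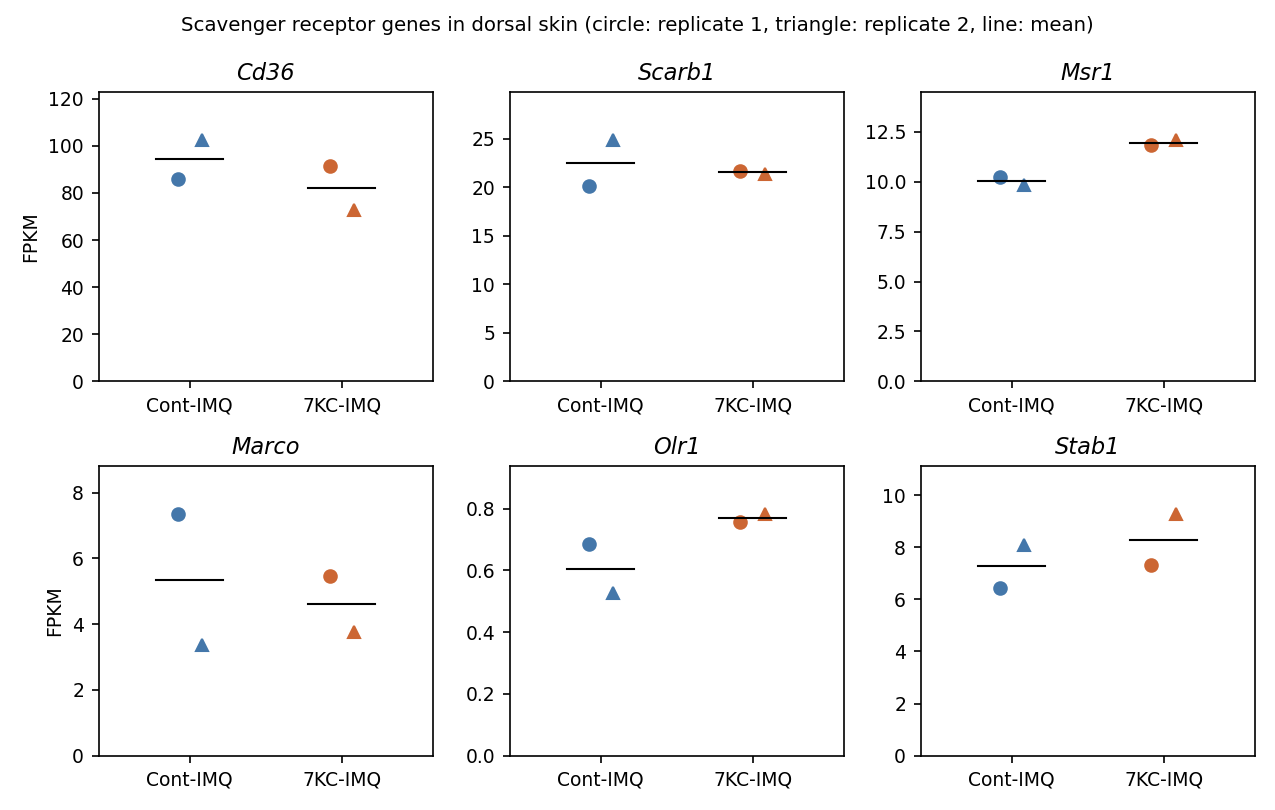
FPKM (vertical axes, linear from 0) of the 6 scavenger receptor genes in the Cont-IMQ and 7KC-IMQ libraries, with circles for replicate 1, triangles for replicate 2 and a line at the group mean. The groups are apart in *Msr1* (9.81 and 10.2 against 11.8 and 12.1 FPKM) and *Olr1*, and they overlap in the other 4 genes.

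Over the 6 genes, 3 had a higher and 3 a lower mean in the 7KC-IMQ group, and none passed the test after adjustment over all 15896 genes tested (limma with a variance trend, Benjamini-Hochberg adjusted p from 0.374 for *Msr1* to 0.916 for *Marco*). In that test, 0.00629% of all genes passed, which is 1 gene. With no adjustment, 1 of the 6 genes had a limma p-value under 0.05, *Msr1*, against 13.0% of all genes, split into 7.50% with a higher and 5.47% with a lower level after 7KC. The groups did not overlap in 2 of the 6 genes, *Msr1* and *Olr1*, both higher in the 7KC-IMQ group, whereas 46.8% of all genes did not overlap in either direction, 23.9% with a higher and 22.9% with a lower level after 7KC. The median log2 fold change of the 6 genes was 0.05, and that of all genes tested was -0.01. The median absolute log2 fold change was 0.15 for the 6 genes and 0.13 for all genes tested. With 2 libraries in each group, an exact permutation test (two-sided) has 0.333 as its smallest p-value, so it was not used for single genes.

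Of the class B receptors, *Cd36* (ENSMUSG00000002944.15, chromosome 5 of mm10 from 17781690 to 17888801, minus strand) encodes a membrane protein that binds oxidized LDL and carries long-chain fatty acids into cells, and it is known from adipocytes, capillary endothelium, muscle and macrophages. In Cont-IMQ replicates 1 and 2, its level was 86.1 and 102 FPKM, and in 7KC-IMQ replicates 1 and 2 it was 91.6 and 73.0 FPKM. The groups overlapped, since 7KC-IMQ replicate 1 lay between the Cont-IMQ libraries and only 7KC-IMQ replicate 2 lay below both. The group means were 94.2 ± 11.6 and 82.3 ± 13.2 FPKM (SD, n = 2), and the log2 fold change was -0.20 (standard error 0.15, 95% interval -0.59 to 0.20, adjusted p = 0.616 in limma). The difference between the means was about as large as the SD within the groups, and without 7KC-IMQ replicate 2 it shrank to -0.03. *Cd36* had the highest mean FPKM of the 6 genes, above that of 93.4% of the genes tested.

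The bases before a start site of *Cd36* are shown here because several annotated transcripts share its single FPKM. The 250 bases before the start in RefSeq (GRCm38.p6, chr5:17835897-17836146, minus strand, 5′ to 3′) hold 2 copies of GGGCGG, the core letters of an SP1 site, in capitals.
Cd36: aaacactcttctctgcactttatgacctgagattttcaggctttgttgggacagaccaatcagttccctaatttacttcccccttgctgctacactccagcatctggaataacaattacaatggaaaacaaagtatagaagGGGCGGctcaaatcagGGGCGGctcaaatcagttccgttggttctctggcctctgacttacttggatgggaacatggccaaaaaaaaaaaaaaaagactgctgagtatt
GENCODE lists 5 complete coding transcripts of *Cd36*, from 2564 to 3399 bases long. The annotated gene reaches to 17888801 on the minus strand, so the RefSeq start is not its outermost start. The FPKM of the gene does not say which start was used. The copies begin 109 and 93 bases before the start, and 32.7% of all windows of this length hold GGGCGG on either strand.

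*Scarb1* (ENSMUSG00000037936.15, chromosome 5 from 125277087 to 125341094, minus strand) encodes the receptor for high-density lipoprotein, which takes up cholesteryl esters without the particle and also binds oxidized LDL. Cont-IMQ replicates 1 and 2 had levels of 20.1 and 24.8 FPKM, and 7KC-IMQ replicates 1 and 2 had levels of 21.7 and 21.4 FPKM. Both 7KC-IMQ libraries lay between the Cont-IMQ libraries. With means of 22.5 ± 3.36 and 21.6 ± 0.219 FPKM (SD, n = 2), the log2 fold change was -0.05 (standard error 0.12, 95% interval -0.37 to 0.27, adjusted p = 0.893 in limma). On the log2(FPKM + 1) scale, the interval runs from 0.775 to 1.21 as a ratio. The sign rested on Cont-IMQ replicate 2, without which the value was 0.10.

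Of the class A receptors, *Msr1* (ENSMUSG00000025044.16, chromosome 8 from 39581685 to 39642673, minus strand) encodes the macrophage scavenger receptor, the classical receptor for acetylated and oxidized LDL. In Cont-IMQ replicates 1 and 2, its level was 10.2 and 9.81 FPKM, and in 7KC-IMQ replicates 1 and 2 it was 11.8 and 12.1 FPKM. Each 7KC-IMQ library exceeded each Cont-IMQ library, and the libraries of a group were within 1.04-fold of each other. The means were 10.02 ± 0.297 and 11.9 ± 0.174 FPKM (SD, n = 2), a ratio of 1.19, so the difference was larger than the spread between replicates. The log2 fold change was 0.23 (standard error 0.084, 95% interval 0.01 to 0.46, unadjusted p = 0.0439, adjusted p = 0.374 in limma). Of all genes tested, 24.9% had a larger absolute log2 fold change. Leaving out each library in turn gave 0.20 to 0.26, with unadjusted p-values of 0.0587 to 0.183 in limma. With the libraries rescaled to the same FPKM sum, the value was 0.16 (unadjusted p = 0.174 in limma), and with the replicate number as a block the unadjusted p was 0.0817, so the call at 0.05 without adjustment was lost in each of these settings. If its longest complete coding transcript (3636 bases) is taken, the values correspond to an estimated 537 and 510 reads in the Cont-IMQ group and 666 and 624 reads in the 7KC-IMQ group. The exact 95% Poisson intervals of the nearest libraries, 493 to 584 reads in Cont-IMQ replicate 1 and 576 to 675 reads in 7KC-IMQ replicate 2, overlapped slightly. With the shortest transcript (1424 bases), the estimates were 191 and 182 against 237 and 222 reads, and these intervals overlapped more widely (165 to 220 and 194 to 253 reads).

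*Marco* (ENSMUSG00000026390.7, chromosome 1 from 120474538 to 120505024, minus strand) encodes a macrophage receptor with a collagen-like stalk that binds bacteria and modified LDL. Cont-IMQ replicates 1 and 2 had levels of 7.33 and 3.36 FPKM, and 7KC-IMQ replicates 1 and 2 had levels of 5.46 and 3.78 FPKM. The Cont-IMQ libraries held both the highest and the lowest value, 2.19-fold apart, and both 7KC-IMQ libraries lay between them. The log2 fold change was -0.12 (standard error 0.354, 95% interval -1.05 to 0.81, adjusted p = 0.916 in limma), the widest interval of the 6 genes. Without Cont-IMQ replicate 1 the value was 0.35, without Cont-IMQ replicate 2 it was -0.59, and without 7KC-IMQ replicate 2 it was 0.10. *Marco* has a single complete coding transcript, and its values correspond to an estimated 193 and 88 reads in the Cont-IMQ group and 154 and 98 reads in the 7KC-IMQ group. The exact 95% Poisson intervals of the Cont-IMQ libraries, 167 to 222 and 70.6 to 108 reads, did not overlap, so the libraries of this group differed by more than counting error. A 2-fold difference of *Marco* between the diets in the lower direction was not outside its interval, which runs from 0.483 to 1.76 as a ratio on the log2(FPKM + 1) scale.

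*Olr1* (ENSMUSG00000030162.14, chromosome 6 from 129485244 to 129507165, minus strand) encodes the lectin-like receptor for oxidized LDL, first known from endothelium and induced by inflammatory cytokines in several cell types. In Cont-IMQ replicates 1 and 2, its level was 0.686 and 0.526 FPKM, and in 7KC-IMQ replicates 1 and 2 it was 0.756 and 0.781 FPKM. The groups did not overlap, but Cont-IMQ replicate 1 was nearer to 7KC-IMQ replicate 1 than to the other library of its own group. The means were 0.606 ± 0.113 and 0.769 ± 0.0179 FPKM (SD, n = 2), a ratio of 1.27. On the log2(FPKM + 1) scale the difference was 0.14 (standard error 0.111, 95% interval -0.15 to 0.43, adjusted p = 0.627 in limma). With 0.1 in place of 1 added to the FPKM, it was 0.31 with an adjusted p of 0.652, and without Cont-IMQ replicate 2 it was 0.07 (adjusted p from 0.423 to 0.967 over all alternatives in limma). If the longest transcript of *Olr1* (3572 bases) is taken, these levels correspond to an estimated 35 and 27 reads against 42 and 40 reads, with exact 95% Poisson intervals of 24.4 to 48.7, 17.8 to 39.3, 30.3 to 56.8 and 28.6 to 54.5 reads. All 4 intervals overlapped. With the shortest complete coding transcript (468 bases), the estimate would be 2 or 3 reads per library, and which transcripts the authors used is not given in the sources used here.

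The bases before the start of *Olr1* are shown because it is the member with non-overlapping groups for which a RefSeq promoter was at hand. The 250 bases before the start (GRCm38.p6, chr6:129507166-129507415, minus strand, 5′ to 3′) hold TGAGTCA, a match to the AP-1 letters TGANTCA, and TTCCTC, a match to GAGGAA on the other strand, both in capitals. GAGGAA contains the GGAA core of ETS factors, a family that includes the macrophage factor PU.1.
Olr1: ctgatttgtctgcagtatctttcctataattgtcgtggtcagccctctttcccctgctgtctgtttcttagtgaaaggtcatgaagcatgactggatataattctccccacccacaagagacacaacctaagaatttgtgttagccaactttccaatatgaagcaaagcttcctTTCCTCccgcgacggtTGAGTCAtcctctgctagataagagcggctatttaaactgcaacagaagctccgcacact
The AP-1 match begins 60 and the GAGGAA match 76 bases before the start, and they do not overlap. Of 32851 promoter windows of this length, 6.75% hold TGANTCA and 23.3% hold GAGGAA on either strand. Among the 4 members with a promoter in the table (*Cd36*, *Marco*, *Olr1* and *Stab1*), GAGGAA was also found in *Marco*, 146 bases before the start, and in *Stab1*, 30 bases before it. Direct repeats of AGGTCA spaced by 1 and by 4 bases, the letters bound by PPAR and by LXR receptors with RXR, were in none of the 4 windows and in 0.0335% and 0.0152% of all windows. TATAAA was in none of the 4 windows and in 12.4% of all. *Msr1* and *Scarb1* had no entry. A match is a description of these letters only.

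*Stab1* (ENSMUSG00000042286.13, chromosome 14 from 31139013 to 31168641, minus strand) encodes stabilin, a very large clearance receptor of tissue macrophages and of sinusoidal and lymphatic endothelium that binds acetylated LDL. Cont-IMQ replicates 1 and 2 had levels of 6.45 and 8.07 FPKM, and 7KC-IMQ replicates 1 and 2 had levels of 7.30 and 9.26 FPKM. The groups overlapped, with 7KC-IMQ replicate 1 between the Cont-IMQ libraries and 7KC-IMQ replicate 2 above both. The means were 7.26 ± 1.14 and 8.28 ± 1.38 FPKM (SD, n = 2), and the log2 fold change was 0.17 (standard error 0.163, 95% interval -0.26 to 0.60, adjusted p = 0.701 in limma). Without 7KC-IMQ replicate 2 it was 0.01. The values correspond to an estimated 769 and 952 reads against 934 and 1086 reads of its 7999-base transcript, the longest of the 6 genes. The end of *Stab1* overlaps the end of *Nt5dc2* on the opposite strand, and 0.34% of the 75-base windows of *Stab1* also occur in that gene. *Nt5dc2* had levels of 52.1 and 62.4 FPKM in Cont-IMQ replicates 1 and 2 against 69.6 and 92.8 FPKM in the 7KC-IMQ libraries, and its part in the *Stab1* values was not tested. The kit keeps strand, but whether strand was used in counting is not given in the sources used here. No 75-base window of the other 5 genes occurred in another annotated gene.

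**Figure D2:**
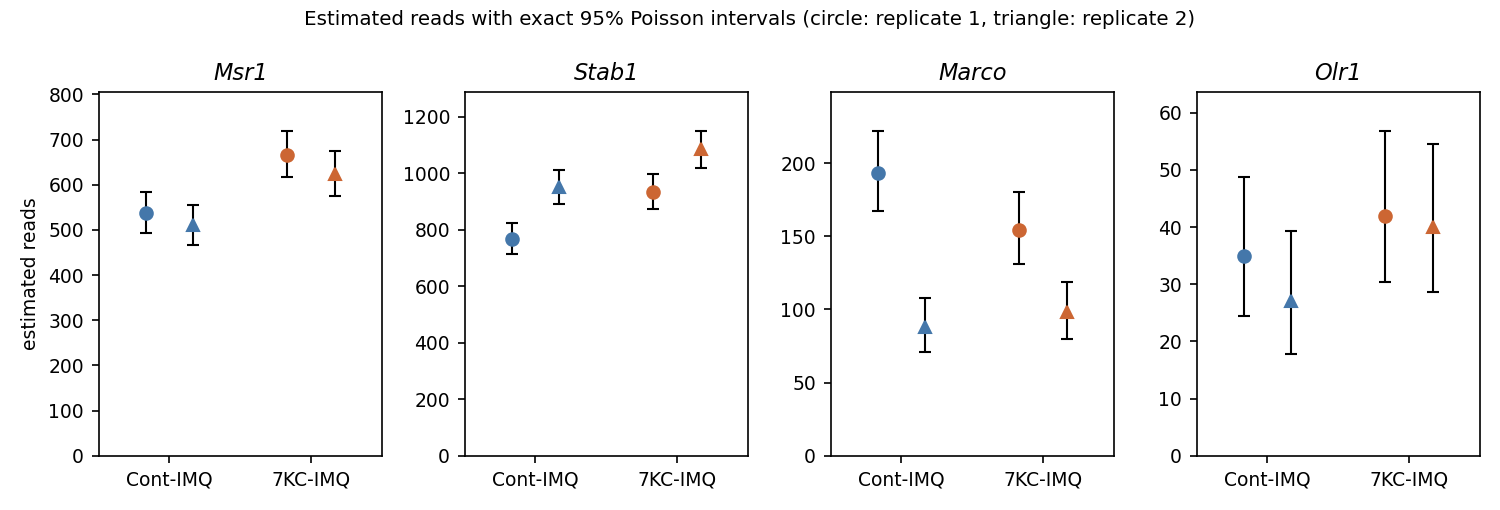
Estimated reads per library (vertical axes, linear from 0) of *Msr1*, *Stab1*, *Marco* and *Olr1* from their longest complete coding transcript, with exact 95% Poisson intervals as bars, which cover counting error only. The *Olr1* intervals all overlap, while those of the 2 Cont-IMQ libraries of *Marco* do not.

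The 6 genes did not vary together over the 4 libraries. Relative to its own mean on the log2(FPKM + 1) scale, *Cd36* was highest in Cont-IMQ replicate 2 (0.22) and lowest in 7KC-IMQ replicate 2 (-0.26). *Scarb1* was also highest in Cont-IMQ replicate 2 (0.17), but lowest in Cont-IMQ replicate 1 (-0.12). *Marco* was highest in Cont-IMQ replicate 1 (0.53), the library in which *Stab1* was lowest (-0.23). *Msr1*, *Olr1* and *Stab1* had their highest value in 7KC-IMQ replicate 2, and *Cd36* its lowest. The genes most like each member were then found among 13109 other genes with a mean of at least 1 FPKM (13110 for *Olr1*, which is itself below that level), by the root mean square difference of these centered values. They were *Trim32* and *Cpxm2* for *Cd36* (0.020 and 0.022), *Fgd1* and *Agps* for *Scarb1* (0.0057 and 0.011), and *Naa20* and *Nrm* for *Msr1* (0.0042 and 0.0060). *Far1* and *Ssr3* were nearest to *Olr1* (0.0059 and 0.0068), and *Zcchc3* and *Sass6* to *Stab1* (0.020 and 0.024). *Marco* had *2310039L15Rik* (0.014) and *Cd209d* (0.047), and *Cd209d*, which encodes a C-type lectin, had 12.3 and 5.74 FPKM against 8.66 and 5.96 FPKM in the 7KC-IMQ libraries. With only 4 libraries, close likeness is common, and none of these values carries a test.

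In whole skin, a higher level can come from more cells of a type or from more RNA per cell, and bulk libraries cannot tell them apart. The markers of cells known to carry the receptors were therefore set beside them, with the values of Cont-IMQ replicates 1 and 2 given first and those of 7KC-IMQ replicates 1 and 2 after the word against. The 12 macrophage genes had no value at 0 and summed to 1082 and 1322 FPKM against 1043 and 1104 FPKM. Of these 12 genes, 1 was higher without overlap (*Cd14*, 7.73 and 6.27 against 8.35 and 8.97 FPKM, unadjusted p = 0.086 in limma). The 3 lower without overlap were *Csf1r*, *Lyz2* (210 and 233 against 191 and 175 FPKM) and *Aif1* (36.6 and 38.4 against 30.8 and 32.5 FPKM). The unadjusted limma p-values of *Lyz2* and *Aif1* were 0.037 and 0.0293 (adjusted 0.368 and 0.365). The median log2 fold change of the 12 genes was -0.13. *Adgre1*, which encodes the macrophage antigen F4/80, had 49.0 and 64.3 FPKM against 46.7 and 50.5 FPKM. Relative to the mean log2(FPKM + 1) of the 12 genes in the same library, *Msr1* stood at -2.08 and -2.36 in Cont-IMQ replicates 1 and 2, and at -1.85 and -1.93 in 7KC-IMQ replicates 1 and 2. The groups of this measure did not overlap either, and the 7KC-IMQ mean exceeded the Cont-IMQ mean by 0.33, against 0.23 for *Msr1* itself. *Stab1* stood at -2.67 and -2.62 against -2.48 and -2.28, without overlap, whereas its level as such overlapped. Beside the lymphatic endothelium genes, the further carriers of stabilin, *Stab1* stood at -0.63 and -0.40 against -0.48 and -0.24, with overlap. Without *Pdpn*, the gene of that list with the largest difference and left out after its values were seen, it stood at -0.23 and -0.03 against 0.14 and 0.33, without overlap. *Marco* stood at -2.51 and -3.67 against -2.84 and -3.38, so the groups overlapped and the Cont-IMQ libraries were further apart than those of the 7KC-IMQ group, as for its level. *Olr1* stood at -4.81 and -5.19 against -4.72 and -4.81, so the nearest libraries of its groups were equal after rounding. Beside the blood endothelium genes described below, *Olr1* stood at -2.13 and -2.4 against -1.91 and -1.8, higher without overlap. *Scarb1*, *Msr1* and *Stab1* were also higher without overlap beside that list, whose own mean was 2.89 and 3.01 against 2.72 and 2.63. The mean of the macrophage list itself stood at 5.57 and 5.8 against 5.53 and 5.64, and a lower list mean raises any gene set beside it. The share of all genes without overlap was not calculated for these relative measures, and they were not tested.

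*Cd36* was set beside the adipocyte, blood endothelium, macrophage and skeletal muscle lists, and the groups overlapped beside all of them but the adipocyte list. The 8 adipocyte genes were all above 0 and summed to 860 and 1366 FPKM against 1328 and 1181 FPKM. Their median log2 fold change was 0.23, 2 of them were higher without overlap (*Lep* and *Plin1*) and none was lower. Relative to the mean of this list, *Cd36* stood at 1.43 and 1.24 in the Cont-IMQ group and at 0.76 and 0.72 in the 7KC-IMQ group, lower by 0.60 without overlap. Without *Lep*, the gene of the list with the largest difference and left out after its values were seen, the values of *Cd36* were 0.91 and 0.63 against 0.42 and 0.25. *Scarb1* was also lower without overlap beside the full list, at -0.62 and -0.76 against -1.27 and -1.0. For *Msr1*, *Marco*, *Olr1* and *Stab1* the groups overlapped there, each with a lower 7KC-IMQ mean. The mean of the full list itself was 5.02 and 5.45 against 5.77 and 5.49. Of the 10 blood endothelium genes, none of them at 0, 7 were lower and 1 was higher without overlap, all 8 with an unadjusted limma p-value under 0.05 and none past the adjusted threshold, with a median log2 fold change of -0.38. *Tek*, which encodes the angiopoietin receptor, had 6.44 and 6.98 FPKM against 4.63 and 4.11 FPKM (log2 fold change -0.52, adjusted p = 0.352 in limma), and *Sele*, which encodes E-selectin, had 0.766 and 0.605 FPKM against 1.48 and 1.41 FPKM. Relative to the mean of these 10 genes, *Cd36* stood at 3.56 and 3.68 against 3.81 and 3.58, with overlap. Beside the macrophage genes it stood at 0.88 and 0.89 against 1.00 and 0.57, and beside the skeletal muscle genes at -2.77 and -2.28 against -2.65 and -3.16, again with overlap. Of the 7 muscle genes, 2 were higher and 2 lower without overlap. They include *Myh4* (125 and 62.9 against 427 and 329 FPKM, log2 fold change 2.07) and *Myh1* (695 and 753 against 322 and 568 FPKM, log2 fold change -0.76). The muscle comparison was not repeated without these genes. The part of each cell type in the level of *Cd36* was not tested.

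**Figure D3:**
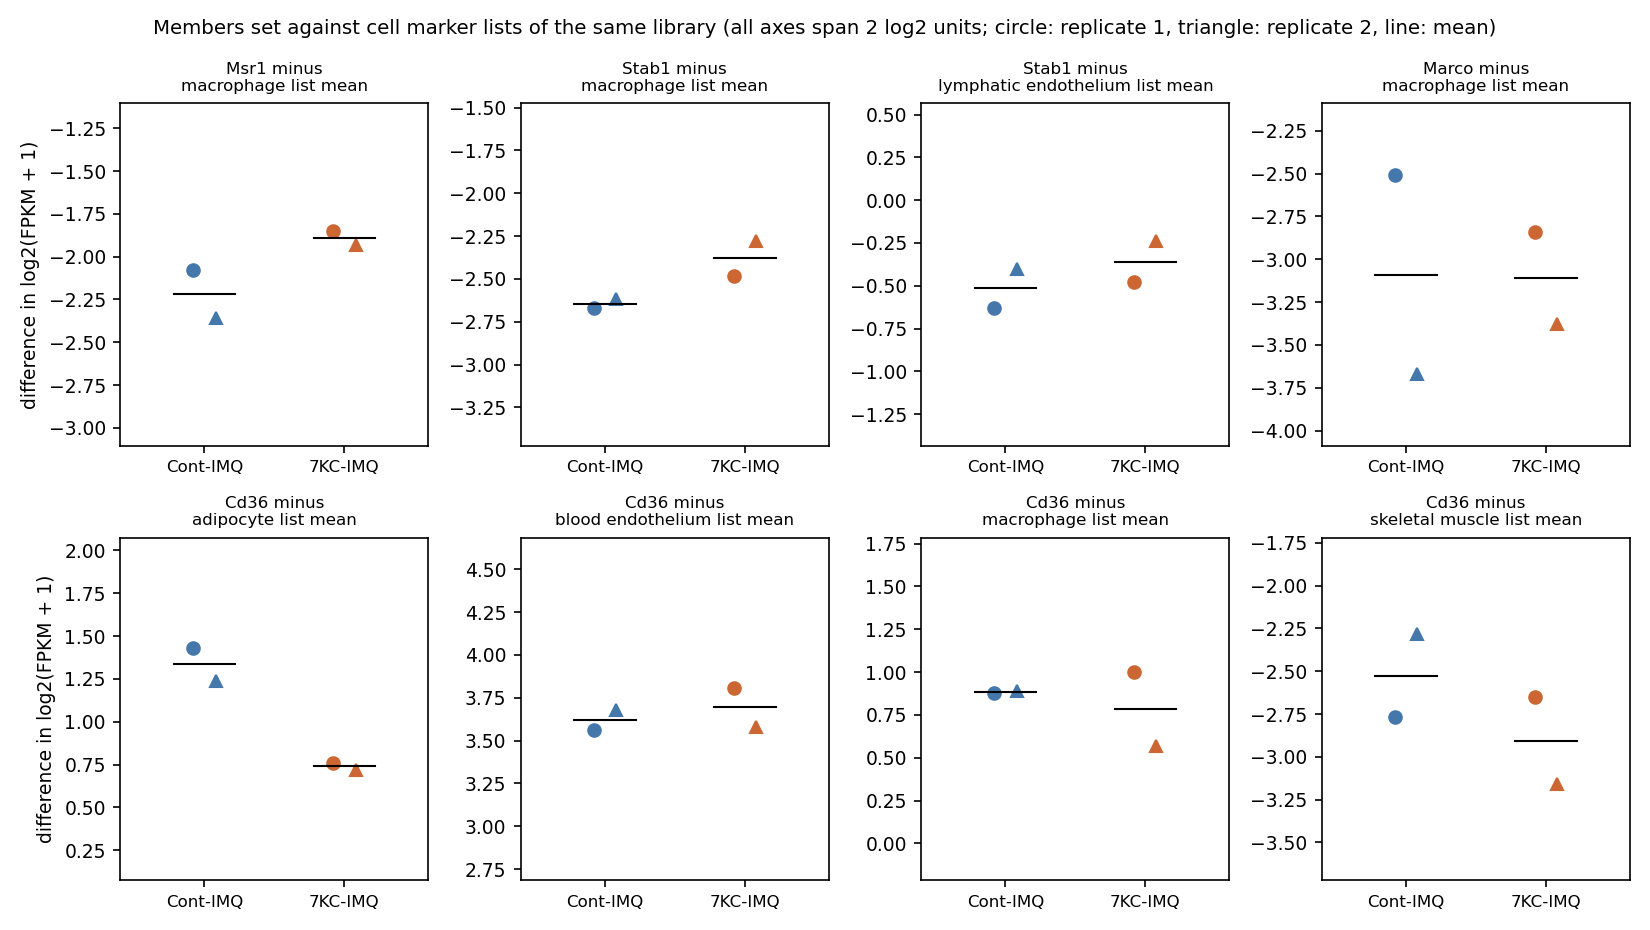
Difference between a member and the mean of a cell marker list in the same library, in log2(FPKM + 1), for *Msr1*, *Stab1* and *Marco* beside the macrophage list, *Stab1* beside the lymphatic endothelium list, and *Cd36* beside the adipocyte, blood endothelium, macrophage and skeletal muscle lists, with circles for replicate 1, triangles for replicate 2 and lines at group means. Beside the macrophage list *Msr1* and *Stab1* lie higher, and beside the adipocyte list *Cd36* lies lower, in the 7KC-IMQ group without overlap, while the groups overlap in the other 5 panels.

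Sums of the remaining cell lists are given for the same libraries, and they do not measure the makeup of the tissue. The 5 lymphatic endothelium genes, which mark cells known to carry stabilin, summed to 124 and 122 FPKM against 132 and 130 FPKM, with 1 gene higher (*Pdpn*, which keratinocytes also express) and 2 lower without overlap. The higher sum came from *Pdpn* (33.8 and 32.5 against 63.0 and 57.2 FPKM), and the other 4 genes summed to 89.8 and 89.5 against 69.4 and 73.0 FPKM, lower without overlap. Keratinocyte genes (8) summed to 24050 and 16170 against 18670 and 20690 FPKM, sebocyte genes (7) to 505 and 398 against 583 and 585 FPKM, and skeletal muscle genes (7) to 7160 and 7044 against 5835 and 6959 FPKM. The genes of these lists went in both directions. Without overlap, 2 keratinocyte genes were higher and 1 lower, and 5 sebocyte genes were higher and 2 lower. Neutrophil genes (7 of 8 in the files) summed to 2577 and 2120 against 7218 and 13810 FPKM, nearly all of it *S100a8* and *S100a9*, which keratinocytes express as well. Of the 6 neutrophil genes tested, 4 were higher and none lower without overlap, with a median log2 fold change of 0.36. *Cxcr2*, which encodes a neutrophil chemokine receptor, had 13.4 and 15.1 against 20.2 and 23.0 FPKM (log2 fold change 0.57, unadjusted p = 0.00432, adjusted p = 0.352 in limma), and *Csf3r*, the receptor for the granulocyte growth factor, had 3.80 and 3.64 against 3.93 and 4.50 FPKM. The granule genes *Mpo*, *Elane* and *Ngp* of this list were at 0 in at least 1 library. Red blood cell genes (5 of 6 in the files) summed to 27.0 and 7.16 against 6.81 and 25.6 FPKM. The part of these cells in the levels of the 6 receptors was not tested.

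Further scavenger receptors outside the 6 had log2 fold changes between -0.42 (*Scara5*) and 0.42 (*Clec7a*, which encodes the beta-glucan receptor dectin and overlapped between the groups). Of 15 genes on this list, 14 passed the filter, 3 were higher and 4 lower without overlap, none passed after adjustment in limma, and 1 (*Ager*, the receptor for advanced glycation end products, 0.677 and 0.789 against 0.317 and 0.317 FPKM) had an unadjusted p-value under 0.05. Their median log2 fold change was -0.06. *Cxcl16*, which encodes a membrane-bound chemokine that binds oxidized LDL, had the highest level of the list, 52.0 and 52.9 FPKM against 61.1 and 57.6 FPKM (log2 fold change 0.17, adjusted p = 0.41 in limma). *Lrp1*, which encodes a large endocytic receptor, had 34.6 and 33.3 FPKM against 37.3 and 35.2 FPKM. *Scara5*, which encodes a class A receptor that binds ferritin, had 37.9 and 51.9 FPKM against 36.4 and 29.7 FPKM, and *Cd68*, which encodes a class D receptor of macrophage lysosomes, had 51.0 and 53.7 FPKM against 42.5 and 50.4 FPKM. *Stab2*, the relative of *Stab1*, was listed at 0.0979 to 0.272 FPKM.

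Genes that act with these receptors in lipoprotein uptake and CD36 signaling went in both directions. Of 21 genes, 7 were higher and 6 lower without overlap, and the median log2 fold change was 0.01. With an unadjusted limma p-value under 0.05, 5 were higher (*Tlr2*, *Fabp5*, *Ppard*, *Soat1* and *Lrp8*) and 1 lower (*Abca1*), and none passed after adjustment. *Tlr2*, which encodes a Toll-like receptor that works with CD36 in sensing bacterial lipids, had 4.63 and 4.33 FPKM against 7.30 and 8.31 FPKM (log2 fold change 0.68, standard error 0.111, adjusted p = 0.352 in limma). *Tlr4*, which is known to act with CD36 in the response to oxidized LDL, had 7.21 and 7.55 FPKM against 6.55 and 5.99 FPKM, and *Tlr6*, the further partner in that response, overlapped between the groups. *Fabp5*, which encodes the epidermal fatty acid binding protein, had the highest level of the list, 2127 and 1866 FPKM against 2703 and 3909 FPKM (log2 fold change 0.71, adjusted p = 0.364 in limma). *Fabp4*, its adipocyte relative, had 831 and 1200 FPKM against 1158 and 762 FPKM, and like *Cd36* it had its highest value in Cont-IMQ replicate 2 and its lowest in 7KC-IMQ replicate 2.

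Regulators of *Cd36* and of cholesterol efflux were on the same list. *Pparg*, which encodes a nuclear receptor known to induce *Cd36*, had 11.1 and 10.9 FPKM against 14.3 and 12.4 FPKM (log2 fold change 0.25, adjusted p = 0.41 in limma), while *Cd36* itself overlapped. *Nr1h3*, which encodes LXR alpha, had 10.3 and 15.8 FPKM against 10.2 and 10.2 FPKM. *Apoe*, the ligand of several lipoprotein receptors, had 1792 and 1981 FPKM against 1557 and 1518 FPKM (log2 fold change -0.29, adjusted p = 0.393 in limma).

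**Figure D4:**
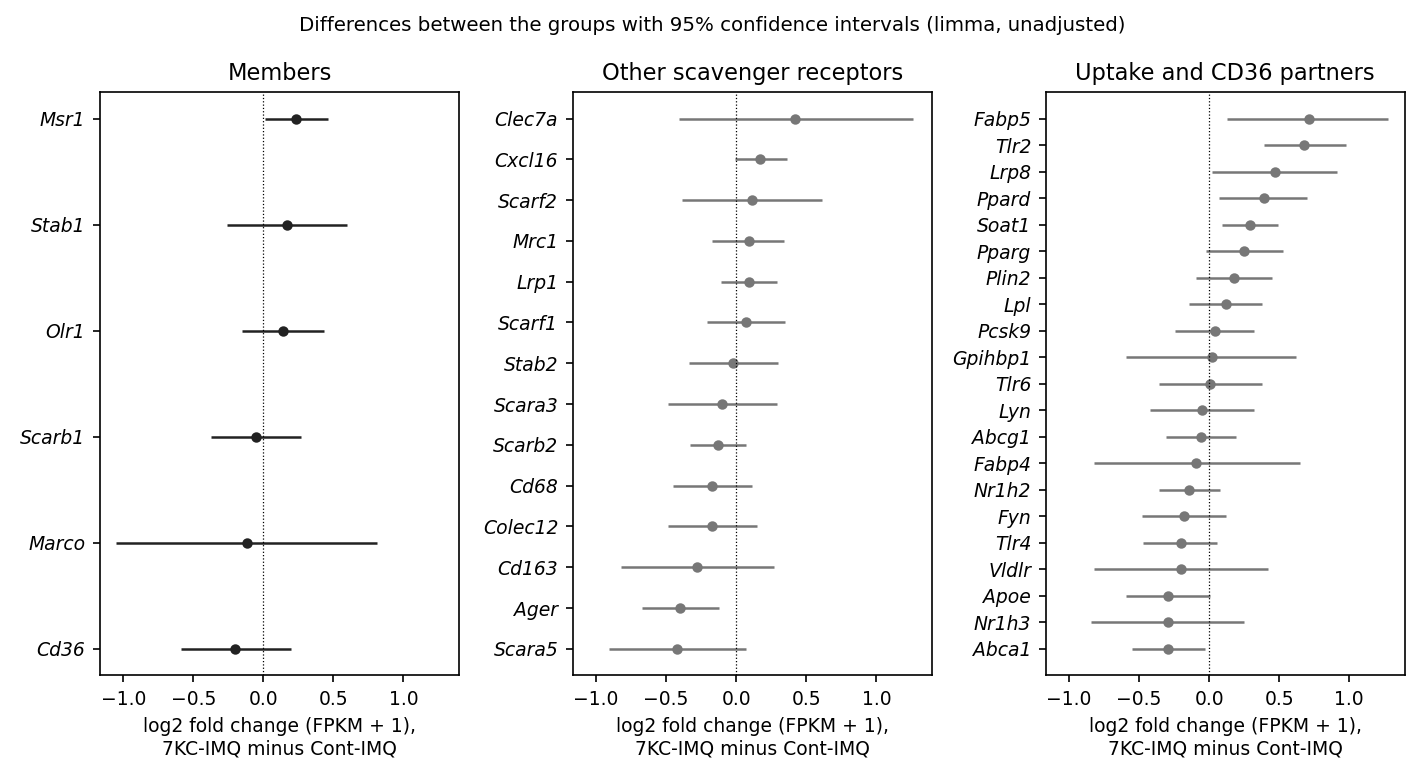
Differences in log2(FPKM + 1), 7KC-IMQ minus Cont-IMQ, of the 6 members, 14 other scavenger receptors and 21 genes of lipoprotein uptake and CD36 signaling, as points with unadjusted 95% confidence intervals from limma. The interval of *Msr1* (0.01 to 0.46) lies just above 0, those of the other 5 members include 0, and that of *Marco* is the widest of the members.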

How the data were processed

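The authors mapped 75-base single-end reads from TruSeq stranded mRNA libraries of dorsal skin to mm10 using TopHat, Bowtie2 and SAMtools, and deposited FPKM values calculated per gene by Cufflinks. The submitters' processing notes name TopHat2 2.1.1, Bowtie2 2.2.8, SAMtools 0.1.18 and Cuffdiff 2.2.1, and the paper's methods name other versions of the first 3 tools. The treatment of reads that map to several genes and the annotation are not given in the sources used here.

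FPKM values were transformed to log2(FPKM + 1). Genes with a mean of at least 0.1 FPKM were kept (15896), and 2 libraries per group were compared by limma 3.58.1 (R 4.3.3) with a variance trend and Benjamini-Hochberg adjustment at 0.05. The test was checked on simulated data with planted differences far larger than those of the members. That check does not show how the test treats differences of their size. An FPKM of exactly 0 can be a failed estimate. The members and lists were chosen with earlier results of these data known. The 6 members are all described. In the 2 further lists, up to 2 genes with the largest difference each way were named, among genes with a mean of at least 1 FPKM and no overlap, with the gene of the highest level. Cell lists are given mainly by counts and sums, and the other list genes named were chosen after their values were seen.

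Depth was estimated as the number of reads that brings genes with a single transcript in GENCODE M21 (GRCm38, the assembly of mm10) nearest to whole reads, with Cufflinks' default fragment lengths. Between 73.5% and 76.9% of 467 to 486 low genes lay within 0.1 of a whole read. About 20.0% would do so at a depth not chosen to fit these genes, so 20.0% is not the chance level of the chosen fit. Intervals and estimated reads cover counting error only. Promoter sequences came from RefSeq (GRCm38.p6) and were found for 4 of the 6 members. Alternatives were another pseudocount, other filters, 3 scalings, a replicate block, a test with no trend of the variance, and leaving out each library. A gene of the lipoprotein uptake list is not reported here.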

Additional observations from a re-analysis of the deposited data

How the results depend on the processing

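No member passed the threshold under any alternative. Of 71 member values, 68 kept their direction and the other 3 reversed, all when a library was left out. Leaving out each library gave -0.36 to -0.03 for *Cd36*, -0.20 to 0.10 for *Scarb1* (0.10 without Cont-IMQ replicate 2), 0.20 to 0.26 for *Msr1*, -0.59 to 0.35 for *Marco* (0.35 without Cont-IMQ replicate 1 and 0.10 without 7KC-IMQ replicate 2), 0.07 to 0.21 for *Olr1* and 0.01 to 0.32 for *Stab1*. A lone library was then assumed to vary like the other group. *Olr1* had no value with a minimum mean of 1 FPKM. Over all genes, 0 were higher and 1 lower past the threshold in limma, against 2 lower with a pseudocount of 0.1, 5 higher and 66 lower without a filter, and 0 to 2 higher and 1 to 7 lower without a library (2 and 7 without Cont-IMQ replicate 1, 0 and 5 without Cont-IMQ replicate 2). The cause was not tested. At an unadjusted p-value under 0.05, 1192 genes were higher. The scalings moved the median of all genes by at most 0.06. Over all alternatives with the 4 libraries, *Cd36* ranged from -0.29 to -0.20, *Scarb1* from -0.13 to -0.05, *Msr1* from 0.16 to 0.25, *Marco* from -0.18 to -0.06, *Olr1* from 0.11 to 0.31 and *Stab1* from 0.09 to 0.19. The values of *Msr1* and *Stab1* nearest to 0 came from the same sum in each library, and that of *Marco* from quantile normalization. The same replicate numbers appear in both groups, and the deviations of same-numbered libraries correlated at 0.0651 over genes. With 2 pairs, this value cannot show whether those libraries shared a batch. The replicate block lowered the standard error of *Marco* from 0.354 to 0.169, of *Stab1* from 0.163 to 0.103 and of *Scarb1* from 0.121 to 0.118. It raised those of *Cd36*, *Msr1* and *Olr1*. With the replicate block, *Msr1* was at 0.23 (adjusted p = 0.484 in limma) and the counts were 0 higher and 1 lower, as without the block.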
